A study of Homo sapiens with 9 samples.

Results

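The 8 genes described here, HMGCS1, SQLE, IDI1, FDFT1, FDPS, INSIG1, DHCR7 and LSS, belong to cholesterol synthesis. They were taken by name from a table of 35876 gene symbols, and all 8 were found there and passed the filter on low counts, which 11905 symbols passed. RNA came from HEK293, an established cell line derived from human embryonic kidney, with 3 groups and 3 replicates in each. The labels give the groups as CC_Cas9, CC_Cas9_Cre and CC_Cas9_Flpo, called Cas9, Cre and Flpo below. All groups therefore carried Cas9, an RNA-guided DNA nuclease, together with an element named CC that the labels do not explain. The Cre and Flpo groups carried in addition a site-specific recombinase, which acts on loxP or FRT sites. The labels name no target gene, promoter, clone or time point, and do not say that replicates came from separate cultures, so p-values measure only the spread between these libraries. INSIG1 encodes a regulator and the other 7 genes encode enzymes. None of the 8 takes up LDL, so they are called cholesterol synthesis genes here.

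Cells make cholesterol from acetyl-CoA through mevalonate, isoprenoid diphosphates and squalene, which is closed into lanosterol and then trimmed to cholesterol. Transcription of the pathway is driven by the sterol regulatory element-binding proteins (SREBPs), which are held in the endoplasmic reticulum with their escort SCAP while sterols are plentiful. INSIG proteins anchor the SCAP-SREBP complex there. When sterols are scarce, SREBPs are cut and enter the nucleus, where they act on promoters together with factors such as NF-Y, which binds CCAAT boxes.

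The libraries differed in ways that touch every value below. Total estimated counts ran from 993902 to 3761779 in the Cas9 group, from 213907 to 1701730 in the Cre group and from 4989524 to 8833491 in the Flpo group. The Flpo totals lay above all Cre and all Cas9 totals, so depth and group cannot be told apart in either comparison with Flpo. AC010970.1 took 9.99% to 21.9% of the counts in the Cas9 group, 1.04% to 17.2% in Cre and 0.591% to 3.35% in Flpo. Levels are given as CPM, the deposited estimated counts relative to library size, with edgeR's TMM factors as scaling. A gene passed the test where edgeR's quasi-likelihood p, adjusted by Benjamini-Hochberg over the 11905 tested genes, was under 0.05. A floor of 3 counts stood at 11.2 CPM in Cre replicate 2, the smallest library, at 1.46 and 2.57 CPM in Cre replicates 1 and 3, and at 0.767 CPM or below in the Flpo libraries. Cre replicate 2 stood apart in markers too. The 4 fibroblast genes COL1A1, COL1A2, DCN and LUM summed to 5617 CPM there, against 445 and 1177 CPM in the other Cre libraries. Their sum was 199.6 to 755 CPM in the Cas9 group and 205 to 271 CPM in the Flpo group. None of the 4 was at 0 in any library. In Cre replicate 2, COL1A2 at 3927 CPM and COL1A1 at 1630 CPM carried most of the sum, while DCN and LUM held 12 and 4 counts. Of 7 markers of HEK293, the summed level was 583 to 1360 CPM in the Cas9 group, 506 to 1095 CPM in the Cre group and 1558 to 5348 CPM in the Flpo group. Keratins carried most of that sum in Flpo, with means of 2357 CPM for KRT8 and 1158 CPM for KRT18, whereas the neurofilament gene NEFL averaged 12.0 CPM in Flpo, 21.6 in Cas9 and 36.6 in Cre. The transcription factor PAX2 was above 0 in 1 of 9 libraries, while vimentin (VIM) ran from 173 to 892 CPM. The extraction text speaks of livers. Of 8 hepatocyte markers, 7 had counts in Flpo replicate 2 and 2 or 3 in each other library. Albumin (ALB) was at 0 in 8 of 9 libraries, with 5 counts in Flpo replicate 2. FGB was at 0 in all 9, whereas APOA1 had counts in all 9. The 8 hepatocyte markers summed to between 9.12 and 107 CPM, most of it TF at 8.32 to 102 CPM. Of 4 blood markers, PTPRC was at 0 in all Cas9 and Cre libraries and CD3E in all 9, while LYZ ran from 32.2 to 249 CPM. The part of these differences in the results was not tested.

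The promoters of 6 of the 8 genes were in the RefSeq table used here (GRCh38.p14), as 10 windows of 250 bases before a start site. They are shown because DHCR7, LSS and IDI1 were lower in Cre than in Flpo by the test, and the other 3 are printed for comparison. For each gene 1 window with a CCAAT box is printed, limited to its stretch outside annotated exons, 5′ to 3′ along the gene, with the CCAAT boxes (CCAAT, or ATTGG on the other strand) in capitals.
DHCR7, chr11:71448436-71448643, minus strand: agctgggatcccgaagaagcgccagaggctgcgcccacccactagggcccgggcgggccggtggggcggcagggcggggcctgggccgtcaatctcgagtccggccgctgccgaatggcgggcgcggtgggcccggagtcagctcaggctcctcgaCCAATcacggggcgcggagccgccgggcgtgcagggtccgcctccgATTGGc
LSS, chr21:46228825-46229024, minus strand: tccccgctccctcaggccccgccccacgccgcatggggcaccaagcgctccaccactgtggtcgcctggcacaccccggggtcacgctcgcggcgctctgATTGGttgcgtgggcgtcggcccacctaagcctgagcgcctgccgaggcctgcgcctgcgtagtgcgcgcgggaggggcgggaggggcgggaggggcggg
IDI1, chr10:1049171-1049369, minus strand: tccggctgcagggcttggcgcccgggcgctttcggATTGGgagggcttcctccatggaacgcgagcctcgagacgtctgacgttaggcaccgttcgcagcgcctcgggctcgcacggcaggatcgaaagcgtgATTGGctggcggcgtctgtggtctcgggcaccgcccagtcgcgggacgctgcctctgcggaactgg
INSIG1, chr7:155297628-155297775, plus strand: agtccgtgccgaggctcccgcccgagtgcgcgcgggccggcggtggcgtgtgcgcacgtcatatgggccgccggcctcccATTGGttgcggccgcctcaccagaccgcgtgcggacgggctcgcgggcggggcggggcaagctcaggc
FDPS, chr1:155308616-155308747, plus strand: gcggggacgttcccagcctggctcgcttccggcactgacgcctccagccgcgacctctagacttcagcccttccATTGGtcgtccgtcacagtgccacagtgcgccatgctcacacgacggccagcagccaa
HMGCS1, chr5:43313513-43313662, minus strand: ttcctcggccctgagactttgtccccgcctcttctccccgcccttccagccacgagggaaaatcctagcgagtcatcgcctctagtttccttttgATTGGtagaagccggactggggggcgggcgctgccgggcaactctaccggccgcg
A CCAAT box was found in 7 of the 10 windows and in at least 1 window of all 6 genes. Over all 35116 windows of that length, 32% held one. Counted by gene, 37% of 27305 genes held one in any of their windows. The GC box GGGCGG, searched on both strands, lay in 9 of the 10 windows and in 42.6% of all windows. The letters TCACNCCAC, a common form of the sterol regulatory element, matched none of the 10 windows and 0.883% of all windows on either strand. The palindrome TCACGTGA, an E-box, matched 1 of the 10, 56 bases before the INSIG1 start, and 0.854% of all windows. A match describes letters only, and no match says only that these letters are not in the window.

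The early steps of the pathway include HMGCS1, cytosolic HMG-CoA synthase, which condenses acetyl-CoA and acetoacetyl-CoA (chromosome 5, 43289395 to 43313512, GRCh38). HMGCS1 stood at 73.7, 56.1 and 29.6 CPM in Cas9 replicates 1, 2 and 3, at 30.0, 44.8 and 61.7 CPM in Cre replicates 1, 2 and 3, and at 36.5, 20.4 and 23.96 CPM in Flpo replicates 1, 2 and 3. The 3 groups overlapped, and HMGCS1 was the only one of the 8 genes with its lowest group mean in Flpo, at 27.0 ± 8.44 CPM against 53.1 ± 22.2 in Cas9 and 45.5 ± 15.9 in Cre (SD, n = 3 each). Its log2 fold change was −0.22 (SE 0.52) for Cre against Cas9, −0.97 (SE 0.52) for Flpo against Cas9 and 0.75 (SE 0.52) for Cre against Flpo. None passed edgeR's test (adjusted p = 0.863, 0.311 and 0.289). In bulk RNA, fewer cells of a type and less RNA per cell cannot be told apart, here and below.

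IDI1 and FDPS build the isoprenoid diphosphates. IDI1, which interconverts isopentenyl and dimethylallyl diphosphate (chromosome 10, 1039152 to 1049170), stood at 1.66, 5.74 and 14.6 CPM in the Cas9 libraries and at 6.82, 7.47 and 0 CPM in the Cre libraries. The Flpo libraries held 35.2, 22.5 and 43.4 CPM, above every library of the other groups. IDI1 fell in Cre against Flpo, with a log2 fold change of −2.95 (SE 0.97, 7.71-fold lower, edgeR adjusted p = 0.0473). Its 3 Cre libraries held 16 counts in all. Against Cas9, IDI1 had the largest difference of the 8 genes in the Flpo group, 2.12 (SE 0.85), which missed the threshold (edgeR adjusted p = 0.189). FDPS, farnesyl diphosphate synthase (chromosome 1, 155308748 to 155320666), supplies the branch point to sterols, ubiquinone, dolichol and prenylated proteins. It had the most counts of the 8 genes, with 140.1, 192 and 229.9 CPM in Cas9, 145, 113 and 134 CPM in Cre, and 317, 136 and 296 CPM in Flpo. Flpo replicate 2 lay within the Cre range, so these groups overlapped. FDPS had a log2 fold change of −0.93 (SE 0.50) in Cre against Flpo, which did not pass (edgeR adjusted p = 0.172).

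FDFT1, SQLE and LSS carry farnesyl diphosphate to lanosterol. FDFT1, squalene synthase (chromosome 8, 11795573 to 11839309), stood at 8.31, 23.5 and 12.3 CPM in Cas9, at 9.26, 0 and 1.72 CPM in Cre and at 28.6, 11.8 and 28.9 CPM in Flpo. All Flpo libraries were above all Cre libraries, but the Cas9 libraries overlapped both. The log2 fold change of FDFT1 in Cre against Flpo was −2.26 (SE 0.81, edgeR adjusted p = 0.0620), and in Cre against Cas9 it was −1.61 (SE 0.81, edgeR adjusted p = 0.619). SQLE, squalene epoxidase (chromosome 8, 124998497 to 125022283), is a rate-limiting oxygen-dependent step. SQLE levels were 6.65, 17.2 and 14.9 CPM in Cas9, 12.7, 0 and 6.01 CPM in Cre, and 33.3, 15.3 and 36.9 CPM in Flpo. Again Flpo and Cre did not overlap while Cas9 overlapped both, and the log2 fold change in Cre against Flpo was −1.90 (SE 0.73, edgeR adjusted p = 0.0771). LSS, lanosterol synthase, closes the sterol ring (chromosome 21, 46188141 to 46228824). It stood at 3.32, 13.2 and 16.3 CPM in Cas9, at 3.41, 0 and 1.72 CPM in Cre and at 17.6, 12.3 and 19.0 CPM in Flpo. In Cre against Flpo, LSS fell by 2.80 on the log2 scale (SE 0.81, 6.96-fold lower, edgeR adjusted p = 0.0325), on 9 counts in the 3 Cre libraries. In Cre against Cas9 its log2 fold change was −2.26 (SE 0.82), the largest of the 8 genes, with an unadjusted p of 0.0161 in edgeR and an adjusted p of 0.619.

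DHCR7, the reductase that turns 7-dehydrocholesterol into cholesterol and is mutated in Smith-Lemli-Opitz syndrome (chromosome 11, 71428193 to 71452868), had the largest difference. It stood at 4.16, 29.8 and 35.7 CPM in Cas9, at 11.2, 7.47 and 0 CPM in Cre and at 72.8, 25.8 and 96.6 CPM in Flpo. DHCR7 fell by 3.37 on the log2 scale in Cre against Flpo (SE 1.02, 10.3-fold lower, edgeR adjusted p = 0.0367), and these groups did not overlap. Flpo replicate 2 lay below Cas9 replicates 2 and 3, and the difference of Flpo from Cas9 was 1.46 (SE 0.88, edgeR adjusted p = 0.369). INSIG1, the sterol-sensing anchor and itself an SREBP target (chromosome 7, 155297776 to 155310235), stood at 0.831, 4.59 and 9.14 CPM in Cas9, at 1.95, 0 and 4.29 CPM in Cre and at 20.7, 6.13 and 28.7 CPM in Flpo. Its Flpo libraries were above its Cre libraries, yet Flpo replicate 2 lay below the floor of Cre replicate 2, where INSIG1 had no count. The log2 fold change of INSIG1 was −2.84 in Cre against Flpo (SE 0.96, edgeR adjusted p = 0.0517) and 1.83 in Flpo against Cas9 (SE 0.82, edgeR adjusted p = 0.234).

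**Figure D1:**
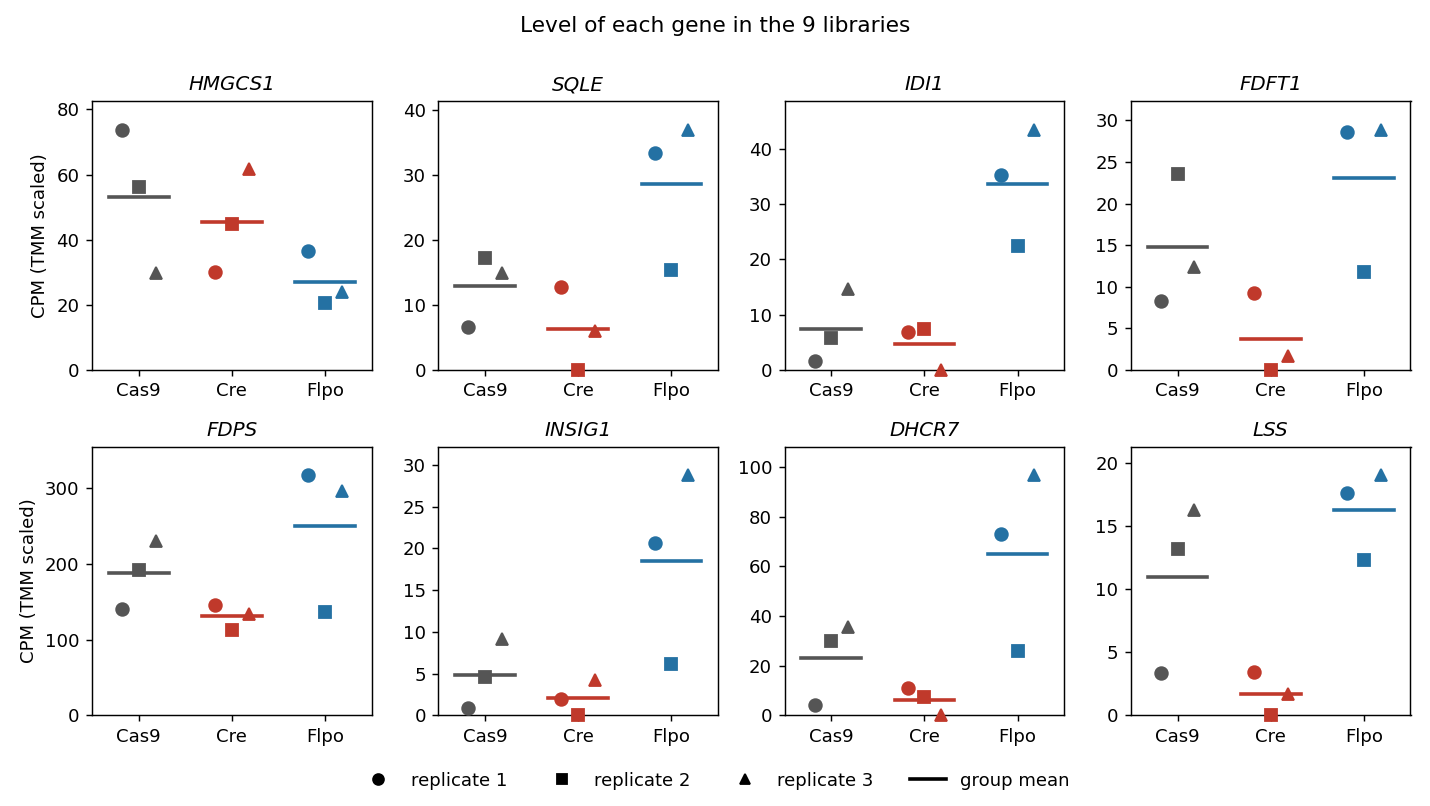
Level of each gene in CPM with TMM scaling (vertical axis, from 0) in the Cas9, Cre and Flpo groups. Symbols mark replicates 1, 2 and 3 and bars mark group means. In 7 of 8 panels the Flpo mean is the highest and the Cre mean the lowest, while in the HMGCS1 panel the Flpo mean is the lowest. The square of Flpo replicate 2 is the lowest Flpo symbol in all 8.

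Within groups the 8 genes followed particular libraries. Flpo replicate 2 was the lowest Flpo library for all 8 genes. DHCR7 in Flpo replicates 1 and 3 was 2.82 and 3.74 times its level in replicate 2, INSIG1 was 3.37 and 4.69 times, and LSS was 1.43 and 1.55 times. Cas9 replicate 1 was the lowest Cas9 library for 7 genes and the highest for HMGCS1. Other transcripts marked the same libraries. The keratin KRT8, a marker of HEK293, stood at 809 CPM in Flpo replicate 2 against 3249 and 3014 CPM in Flpo replicates 1 and 3. The actin gene ACTB took 3.71% and 3.51% of the counts in Flpo replicates 1 and 3, 0.32% in Flpo replicate 2 and 0.0668% to 0.523% in the Cas9 and Cre libraries. Olfactory receptor genes took 0.897% in Flpo replicate 2, 0.0703% and 0.0557% in Flpo replicates 1 and 3, and 0.114% to 0.745% in the Cas9 and Cre libraries. Whether a property of these libraries sets the level of the cholesterol genes was not tested. Only HMGCS1 and FDPS had counts in every library.

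Per kilobase of transcript, taking the median length of a gene's basic coding transcripts in GENCODE release 29, FDPS was the most abundant in all groups. It reached 204 ± 80.5 CPM per kilobase in Flpo, 153 ± 36.7 in Cas9 and 107 ± 13.4 in Cre (SD, n = 3 each). In Flpo, DHCR7 came next at 24.7 ± 13.7 CPM per kilobase. IDI1, SQLE and FDFT1 followed at 11.9 ± 3.72, 11.8 ± 4.77 and 11.6 ± 4.92 CPM per kilobase, which did not differ beyond their spread. HMGCS1 at 7.73 ± 2.42 and INSIG1 at 7.06 ± 4.37 CPM per kilobase were likewise within each other's spread, and LSS had the lowest mean, 4.41 ± 0.962 CPM per kilobase, within the spread of INSIG1. In Cas9 and in Cre, HMGCS1 was second, at 15.2 ± 6.37 and 13.1 ± 4.55 CPM per kilobase.

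Calls among the 8 genes came from the recombinase groups. In Cre against Flpo, IDI1, DHCR7 and LSS fell, 3 of 8 genes, where 14.3% of all tested genes fell and 20.5% changed in either direction, and none of the 8 rose. The other 5 genes did not pass the test. At an unadjusted p under 0.05, 6 of 8 were lower in Cre, against 25.7% of all tested genes (39.8% in either direction). For 6 of 8 the groups did not overlap, with Flpo above Cre in each, against 28% of all tested genes. The median log2 fold change was −2.53 for the 8 genes and −0.34 for all tested genes. Relative to that median, the log2 fold changes were −3.03 for DHCR7, −2.61 for IDI1, −2.50 for INSIG1, −2.46 for LSS and 1.09 for HMGCS1. Without TMM scaling the median of all genes moved to 0.44 and no member passed in edgeR (5 of 8 had an unadjusted p under 0.05), although DHCR7, IDI1 and LSS stood at −3.04, −2.63 and −2.47 relative to it. In that fit 24.2% of all tested genes passed, 17.1% higher and 7.06% lower. The split of calls over all genes turned with the scaling, from 735 higher and 1705 lower with TMM to 2039 higher and 840 lower without it. With library size (log2 of the total count) added to the model, no gene of the 8 passed in edgeR and none reached an unadjusted p of 0.05. Of all tested genes, 0% passed with this covariate. DHCR7, IDI1 and LSS then stood at −0.71, −0.83 and −0.31, and SQLE, FDFT1 and INSIG1 above 0, at 0.66, 0.03 and 0.83. None of the 8 passed in edgeR without Cas9 replicate 2, Cre replicate 2, Cre replicate 3, Flpo replicate 1 or Flpo replicate 3. In each of these fits 4 to 6 of the 8 were under 0.05 before adjustment. In the fit on 9 libraries this held for 39.8% of all tested genes. Over all tested genes, 10% passed without Cas9 replicate 2 and 3.28% without Flpo replicate 3. No gene at all (0%) passed without Cre replicate 2, Cre replicate 3 or Flpo replicate 1. Without Cre replicate 2, the smallest library, the fit gave log2 fold changes of −3.39, −3.13 and −2.57 for DHCR7, IDI1 and LSS. Without Flpo replicate 2, 7 of 8 fell, all but HMGCS1, where 24.4% of the genes tested in that fit fell. Without Cre replicate 1, 5 of 8 fell, against 17.1% of genes, and DHCR7 and IDI1 moved to −5.14 and −4.17. In DESeq2 6 of 8 fell, all but HMGCS1 and FDPS, against 20.8% of genes. Fitted on the Cre and Flpo libraries alone, edgeR called DHCR7 and LSS and lost IDI1 (adjusted p = 0.0590), where 11.4% of genes fell.

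**Figure D2:**
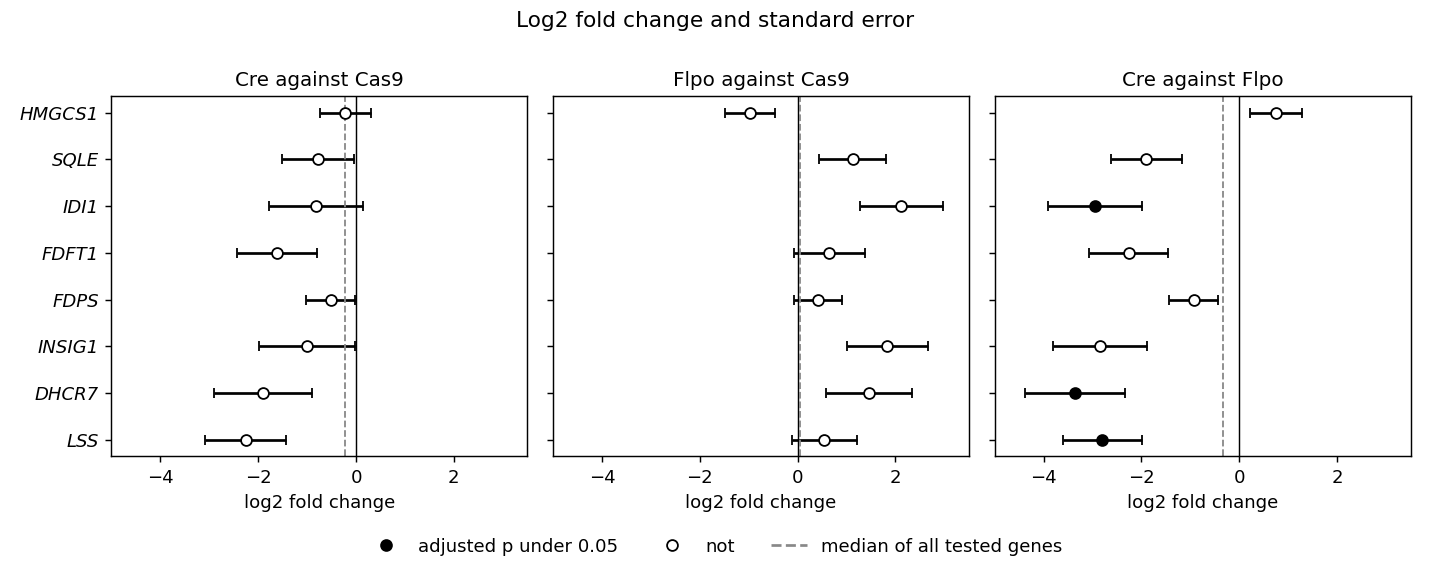
Log2 fold change (horizontal axis) of the 8 genes in each comparison, with bars of 1 standard error from edgeR on 9 libraries. Filled points had an adjusted p under 0.05, and the dashed line is the median of all tested genes. Filled points appear only in Cre against Flpo, for IDI1, DHCR7 and LSS.

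The comparison of Flpo with Cas9 sets the added recombinase, in larger libraries, against Cas9 alone. None of the 8 genes passed edgeR's test, where 0.227% of all tested genes did. At an unadjusted p under 0.05, IDI1 and INSIG1 were higher, 2 of 8, against 13.2% of all tested genes. The groups did not overlap for IDI1 alone, which was higher in Flpo, against 12.9% of all tested genes. The median log2 fold change was 0.89 for the 8 genes and 0.05 for all tested genes. Beside IDI1, INSIG1, DHCR7 and HMGCS1, given above, SQLE stood at 1.13 (SE 0.68), FDFT1 at 0.65 (SE 0.72), LSS at 0.54 (SE 0.66) and FDPS at 0.41 (SE 0.49). DESeq2 called none of the 8, and limma with sample quality weights called 6 of 8, where it called 61% of all tested genes, with IDI1 at 2.40 (limma adjusted p = 6.7e-05) and HMGCS1 at −0.63 (limma adjusted p = 0.0453).

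For Cre against Cas9, the same question for the other recombinase, none of the 8 genes passed edgeR's test, nor did any of the tested genes (0%). LSS alone was lower at an unadjusted p under 0.05, against 6.03% of all tested genes. All 8 log2 fold changes were below 0, as were 58.4% of all, and their median was −0.92 against −0.22 for all tested genes. Next to LSS and FDFT1, given above, DHCR7 stood at −1.90 (SE 1.00), INSIG1 at −1.01 (SE 0.98), IDI1 at −0.83 (SE 0.96), SQLE at −0.77 (SE 0.74) and FDPS at −0.52 (SE 0.49). These values leaned on single libraries: without Cre replicate 1, DHCR7 stood at −3.70 and FDFT1 at −3.46, and without Cre replicate 3 DHCR7 stood at −1.24. No gene of the 8 had groups that did not overlap, where 9.84% of all tested genes did. DESeq2 called none of the 8, and limma with sample quality weights called DHCR7, FDFT1 and LSS, 3 of 8, where it called 33.3% of all tested genes. Both comparisons with Cas9 use the same 3 Cas9 libraries. When all 3 groups were tested jointly for any difference, none of the 8 passed in edgeR, where 9.51% of tested genes passed. At an unadjusted p under 0.05 it held 5 of 8, against 30.4% of tested genes, and DESeq2 called 4 of 8 and 24.1% of all tested genes.

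The other genes of the pathway were read from lists of 46 genes, of which 42 passed the filter, and 10 of these 42 fell in Cre against Flpo, where 14.3% of all tested genes fell. Without TMM 9 of the 42 passed, 4 of them higher and 5 lower. Of 14 other cholesterol synthesis enzymes 6 fell and none rose with TMM scaling, with a median log2 fold change of −1.64. EBP, the sterol isomerase of the late pathway, fell by 4.18 on the log2 scale (SE 0.78, edgeR adjusted p = 0.0167), from 164 ± 84.8 CPM in Flpo to 7.96 ± 5.47 CPM in Cre (SD, n = 3 each). CYP51A1, lanosterol demethylase, had a log2 fold change of −3.86 and ACAT2, which makes acetoacetyl-CoA, of −3.04. LBR, a sterol reductase of the nuclear envelope, stood at −2.77. In Flpo against Cas9, EBP, CYP51A1, ACAT2 and LBR stood at 2.01, 3.33, 2.55 and 1.77. In Cre against Cas9 they stood at −2.17, −0.535, −0.49 and −0.994, and none passed edgeR's test in either comparison. CYP51A1 shares 80.7% of its transcript words of 24 bases with other genes, among them overlapping genes on the same strand, so its counts are uncertain. MVD and TM7SF2, chosen after their values were seen, lay above 0 like HMGCS1, at 1.13 and 1.10, and did not pass the test (edgeR adjusted p = 0.159 and 0.286). Without Cre replicate 2, when 46 of the other genes were tested, none passed in edgeR and 20 had an unadjusted p under 0.05. Of all genes tested in that fit, 0% passed. An unadjusted p under 0.05 held for 39.8% of all tested genes in the fit on 9 libraries, so the 20 of 46 do not set these genes apart.

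**Figure D3:**
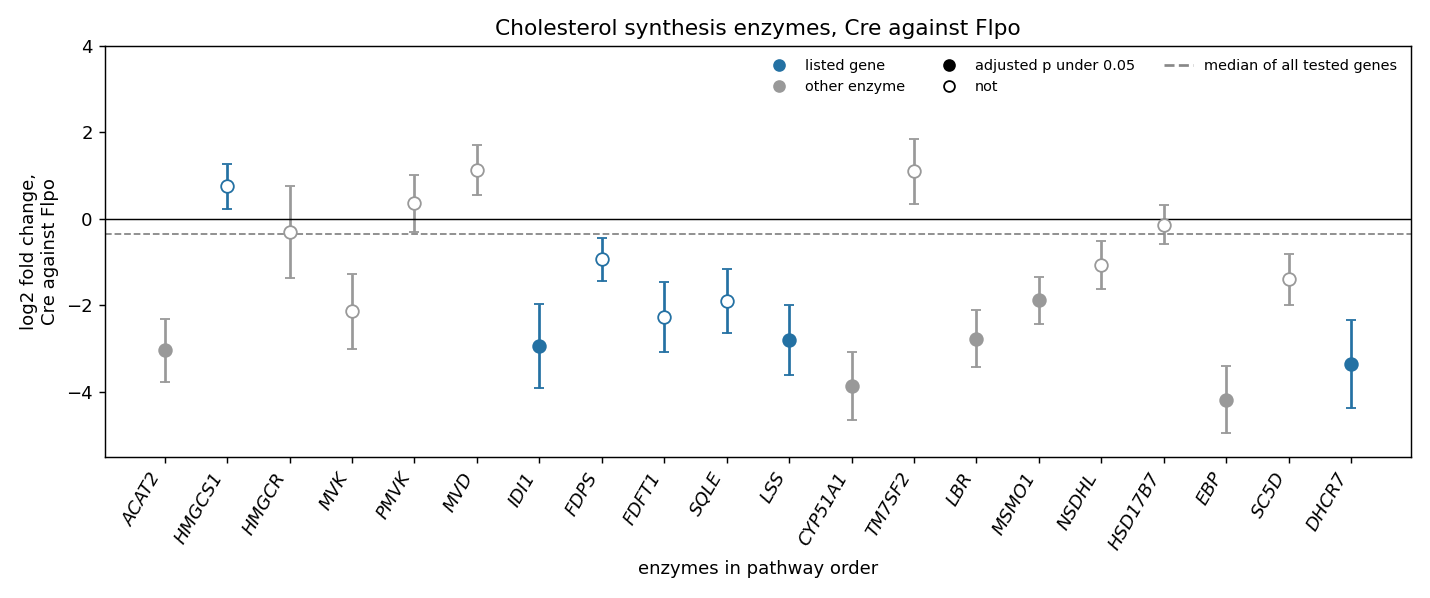
Log2 fold change of Cre against Flpo (vertical axis, bars of 1 standard error) for enzymes in pathway order, from ACAT2 to DHCR7. Blue marks the 7 enzymes among the 8 genes, grey other enzymes, filled points an adjusted p under 0.05, and the dashed line the median of all tested genes. Called enzymes lie below 0 at both ends of the pathway, and HMGCS1, PMVK, MVD and TM7SF2 lie above 0 without passing.

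Of 5 tested genes of sterol sensing and SREBP processing none passed in Cre against Flpo in edgeR, and 2 had an unadjusted p under 0.05, a share like the 39.8% of all tested genes. SREBF2, which encodes SREBP-2, the main activator of cholesterol synthesis, stood at 13.3, 63.7 and 64.5 CPM in Cas9, 21.9, 3.73 and 6.86 CPM in Cre and 44.9, 22.2 and 41.0 CPM in Flpo, and its log2 fold change in Cre against Flpo was −1.55 (edgeR adjusted p = 0.124). Of 6 tested genes of LDL uptake and lysosomal release, 2 were lower in Cre than in Flpo by the test. MYLIP, a ubiquitin ligase, stood 2.95 lower on the log2 scale (edgeR adjusted p = 0.0475). NPC1, which exports cholesterol from lysosomes, stood 1.94 lower (edgeR adjusted p = 0.0228). MYLIP rested on 7, 0 and 0 counts in Cre replicates 1, 2 and 3. NPC1 stood at 56.5, 76.4 and 71.5 CPM in Flpo against 9.41 to 12.7 CPM in Cas9 and 12.9 to 23.9 CPM in Cre. Here Flpo replicate 2 was the highest. The log2 fold change of NPC1 was 2.67 in Flpo against Cas9 (edgeR adjusted p = 0.0508) and 0.735 in Cre against Cas9 (edgeR adjusted p = 0.621). MYLIP stood at 0.358 and −2.595 in the same comparisons, and neither passed. Of 7 fatty acid synthesis genes SCD and ACLY fell, by 3.09 and 2.28 on the log2 scale. None of 3 tested genes of LXR and efflux and none of 7 tested genes of the isoprenoid branch passed in edgeR, with 1 of 3 and 4 of 7 at an unadjusted p under 0.05. The genes with the most counts in these last 3 lists, NR1H2 (an LXR), FADS1 (a fatty acid desaturase) and GGPS1 (geranylgeranyl diphosphate synthase), stood at −0.40, −0.50 and −1.23 in Cre against Flpo, and none passed (edgeR adjusted p = 0.616, 0.500 and 0.0991). GGPS1 alone of these had groups that did not overlap, with Flpo above Cre.

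Reads that could come from several genes were not evenly spread over the 8. The repeated share of a gene is here the percentage of its transcript words of 24 bases that occur in transcripts of at least 10 other genes. It was 3.93% for FDPS, 1.62% for HMGCS1 and 1.15% for FDFT1, and 0.0234% or less for SQLE, IDI1, INSIG1, DHCR7 and LSS. Words found in any other gene, a wider measure, made up 17.6% for FDPS, 5.73% for HMGCS1 and 4% for IDI1. They made up 2.11% for FDFT1, 0.117% for DHCR7 and 0% for SQLE, INSIG1 and LSS. Estimated counts lay over 0.01 from a whole number in 8 libraries for FDPS and HMGCS1 and in 4 for FDFT1, and in none of the 9 for SQLE, IDI1, INSIG1, DHCR7 and LSS. FDPS has 8 pseudogenes in the table, FDPSP1 to FDPSP8, and its exons overlap RUSC1-AS1 on the opposite strand. HMGCS1, IDI1, FDFT1 and LSS also overlap genes on the opposite strand, and the use of strand in counting is not given in the sources used here. Of all 50 tested genes of the lists, the 21 with a repeated share of at least 1% had a median log2 fold change of −0.50 in Cre against Flpo, and the 29 below it −1.96. These subsets were formed after the values were seen, and the part of repeated sequence in the results was not tested.

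Likeness of pattern was measured as the root mean square difference between centred log2 CPM values over 9 libraries. Among the 8, LSS lay nearest to their mean pattern, at 0.58, and HMGCS1 farthest, at 1.58. FDPS and FDFT1 lay at 0.74, SQLE at 0.78, INSIG1 at 0.82, IDI1 at 1.16 and DHCR7 at 1.21. Of 7647 other genes with a mean of at least 50 counts, the nearest were NDUFC2 at 0.20, MARVELD1 at 0.20 and HEY1, ESYT1 and YTHDF2 at 0.22, and the median was 1.17. LSS ranked 686 among them and HMGCS1 5530. Each of the 8 genes is part of the mean pattern and the other genes are not, so these ranks are not on equal terms. LSS and INSIG1, with means of 40.2 and 41.6 counts, also lie below the 50 required of the other genes.

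**Figure D4:**
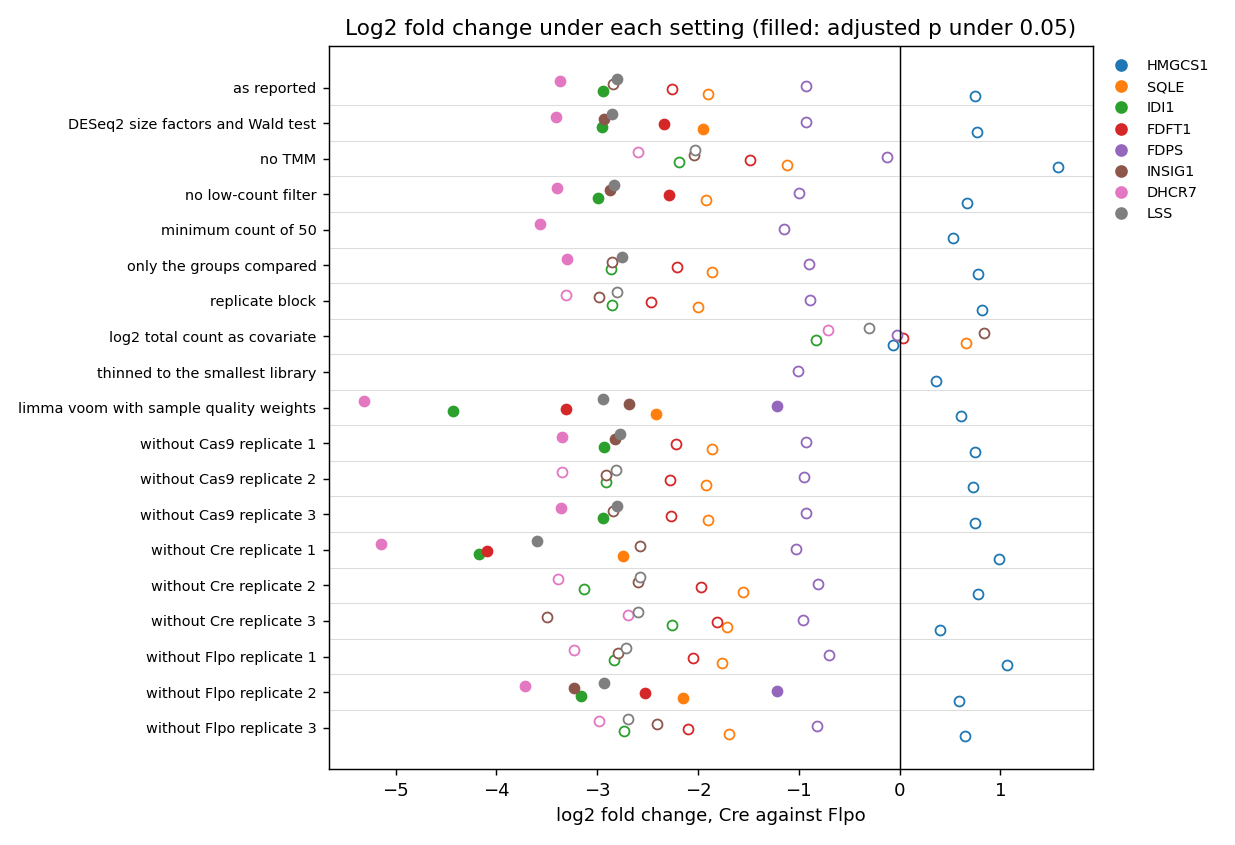
Log2 fold change of Cre against Flpo (horizontal axis) for the 8 genes under each processing setting (vertical axis), with filled points for an adjusted p under 0.05. Colours mark genes. DHCR7, IDI1 and LSS stay below 0 in all settings that give them a value, and no point is filled in the row where the log2 total count entered as covariate.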

How the data were processed

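Processed values for 9 HEK293 libraries (TruSeq RNA kit, TRIzol extraction, per the labels' protocols) were analysed in 3 groups of 3 taken from the sample titles. The authors deposited 1 table of estimated counts per gene symbol, not normalized. Salmon 0.14.1 and hg38 are named in the submitters' processing notes, while annotation, filters and strand are not given in the sources used here. Estimated counts were rounded and tested with edgeR 4.0.16 (R 4.3.3): TMM scaling, default filter (minimum count 10, minimum total 15), quasi-likelihood test on all 9 libraries without covariates, Benjamini-Hochberg adjustment over 11905 genes, threshold 0.05. Standard errors were derived from the log2 fold change and its F statistic (SE = |log2 fold change|/√F). CPM values use the unrounded counts. Alternatives used DESeq2 1.42.0, limma 3.58.1 and other settings. The code was tested on simulated data.

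The 8 genes and all lists were chosen with earlier results of these data known. Named were the 8 genes, up to 4 called genes per other list by size of change, its gene with the most counts, and the 5 genes nearest in pattern. Symbols were matched to GENCODE release 29 (GRCh38), which held 35378 of 35876 symbols and all 54 list genes. Promoters are from RefSeq (GRCh38.p14). Floors cover counting error only. Single values of some list genes are not reported here.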

Additional observations from a re-analysis of the deposited data

How the results depend on the processing

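In the fit with the replicate number as a block, 0 of the 8 genes passed edgeR's test in Cre against Flpo (6 before adjustment), and 3 without it. DHCR7, IDI1 and LSS stood at −3.31, −2.85 and −2.80 under the block (adjusted p = 0.0639, 0.0845 and 0.0640). The block gave 6 other pathway genes and 1568 of all genes in Cre against Flpo, 6 of all genes in Flpo against Cas9, and 3 other pathway genes and 426 of all genes for any difference, and 0 of the 8 genes in the other comparisons. The labels share replicate numbers only. Deviations of same-numbered libraries correlated at −0.48, −0.14 and −0.37 (Cre and Cas9), −0.55, −0.26 and 0.53 (Flpo and Cas9) and 0.37, 0.19 and −0.21 (Cre and Flpo). The signs were mixed, and with 3 libraries per group these values cannot show whether the numbers mark a shared batch.

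Of 397 alternative values for single genes of the 8, 333 kept direction and side of the threshold, 25 newly passed, 25 no longer passed and 14 changed sign. When log2 total count entered as a covariate, signs changed in Cre against Cas9 for INSIG1 (0.39), in Flpo against Cas9 for SQLE (−0.72), FDFT1 (−1.16), FDPS (−0.11), INSIG1 (−0.44), DHCR7 (−0.35) and LSS (−1.17), and in Cre against Flpo for HMGCS1 (−0.069), SQLE (0.66), FDFT1 (0.034) and INSIG1 (0.83). Without TMM, FDPS changed sign in Flpo against Cas9 (−0.13). In Cre against Cas9, leaving out 1 library moved HMGCS1 between −0.60 (without Cre replicate 3) and 0.078 (without Cas9 replicate 1), and IDI1 between −2.06 (without Cre replicate 1) and 0.17 (without Cas9 replicate 3). The causes were not tested.

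Counts of calls for the 8 genes in Cre against Flpo, 3 as reported, were 6 with DESeq2, 7 with limma voom and sample quality weights, 5 without the filter, 2 on the compared groups alone, 1 at a minimum count of 50 and 0 each without TMM, with the covariate and after thinning to the smallest library. Of all genes tested in each fit, DESeq2 called 33.4%, limma 67.6%, no filter 14.2% and the compared groups alone 16.9%. The shares were 25.9% at a minimum count of 50, 24.2% without TMM, 0% with the covariate and 23.3% after thinning. At that minimum 3 of the 8 were tested, and after thinning 2. Limma also called 3 of 8 in Cre against Cas9, 6 in Flpo against Cas9 and 7 for any difference, where DESeq2 and no filter each gave 4. Of all tested genes, limma called 33.3%, 61% and 79.6% in these comparisons. For any difference, DESeq2 called 24.1% of all tested genes and no filter 12.3%.

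For the other pathway genes, Cre against Flpo gave 10 calls as reported, 16 with DESeq2, 31 with limma, 9 without TMM (4 higher and 5 lower), 0 with the covariate and 2 after thinning. Of all tested genes the shares, in that order, were 20.5%, 33.4%, 67.6%, 24.2%, 0% and 23.3%. The other pathway genes tested numbered 42, but 46 without the filter and 16 after thinning. Cre against Cas9 gave 0 and, with limma, 13, where limma called 33.3% of all tested genes. Flpo against Cas9 gave 0 and, with DESeq2, no filter and limma, 5, 5 and 25. Of all tested genes these settings called 8.95%, 4.6% and 61%. Any difference gave 6 and, with DESeq2, no TMM, no filter, the covariate, thinning and limma, 12, 3, 11, 0, 3 and 37. The shares of all tested genes were 9.51% as reported and 24.1%, 8.09%, 12.3%, 0%, 8.18% and 79.6% in these settings.

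The genes tested numbered 11905, but 25386 without the filter, 6258 at a minimum of 50 and 4781 after thinning. For only the groups compared, 13384 were tested in Flpo against Cas9. Over all genes, Cre against Cas9 gave 0 calls and, with DESeq2, no filter and limma, 4, 51 and 3960. Flpo against Cas9 gave 27 and, with DESeq2, no TMM, no filter, a minimum of 50, only the groups compared, the covariate and limma, 1065, 12, 1169, 2, 0, 0 and 7268. Cre against Flpo gave 2440 and, with DESeq2, a minimum of 50, the covariate, thinning and limma, 3976, 1622, 0, 1112 and 8043. Any difference gave 1132 and, with DESeq2, no filter, a minimum of 50, the covariate, thinning and limma, 2870, 3128, 736, 0, 391 and 9475.

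Leaving out 1 library at a time gave 0 to 7 of the 8 genes in Cre against Flpo, 0 to 4 for any difference and 0 in both comparisons with Cas9. It gave 0 to 19 other pathway genes in Cre against Flpo, 0 to 9 in Flpo against Cas9, 0 to 14 for any difference and 0 in Cre against Cas9. Over all genes it gave 0 to 5559 in Cre against Flpo, 0 to 2685 in Flpo against Cas9, 10 to 4194 for any difference and 0 in Cre against Cas9. Depth limits the Cre group most, where LSS and INSIG1 rest on 9 counts each.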
